A study of Mus musculus with 4 samples.

Results

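Metabotropic glutamate receptors were examined through 6 genes, Grm5 of group I, Grm2 and Grm3 of group II, and Grm4, Grm7 and Grm8 of group III, which are 6 of the 46983 genes in the count tables. They were taken by their symbols and by no cut on a measured value, but earlier results of these data were known. They were followed across classes of neuronal and glial nuclei in 4 single-nucleus libraries. The libraries came from male C57Black/6 mice aged 3 months with no transgene named in the labels. One library was labelled sham control, and the others day 1, day 3 and day 7 after permanent middle cerebral artery occlusion (MCAO), a stroke model in which the artery is coagulated and then cut. Each library was made from 3 forebrain hemispheres pooled during the isolation of nuclei, so every group holds 1 library.

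No difference below therefore has a replicate check, no p-value was computed, and every interval covers counting error only. Per the labels the occlusion gives small infarcts of the parietal cortex, while whole forebrain hemispheres were used, so nuclei from inside and outside the lesion cannot be told apart in these libraries. The protocol in the labels names intact cortex as the control tissue and the design text names forebrain hemispheres, and the sham library held 329 nuclei of the striatal projection class. The study's own numbers of nuclei per time point match the deposited libraries only with day 3 and day 7 exchanged. The deposited labels were kept, and no statement here rests on the order of those days. The libraries held 23285489 to 42963698 UMIs (unique molecular identifiers, each standing for 1 captured RNA molecule), and 7765 nuclei were kept, 1017 to 3064 in a library, with a median of 5383.5 to 11024 UMIs. Day 1 had the fewest and deepest nuclei. Libraries shared 0 to 3 nuclear barcodes with each other.

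Nuclei fell into 29 clusters, of which 25 could be named from markers in 18 classes and 4 stayed unnamed. The Baiap3-led and Drd3-led classes carry the name of a leading gene. Because names rest on RNA markers alone, classes are to be read as upper-layer-like, oligodendrocyte-like and so on. Comparisons with sham used 12 classes with enough nuclei in every library. The glutamatergic ones were upper-, middle- and deep-layer cortical, other telencephalic and subcortical neurons. The other neurons were striatal projection neurons, Baiap3-led neurons, and Lhx6 and Adarb2 interneurons. The glia were astrocytes, oligodendrocytes and oligodendrocyte precursor cells (OPC). Microglia served as a background class. Free RNA, released from broken cells and captured in every droplet, was estimated at 20.2% to 51.8% of the UMIs in the glial classes and at 10.2% to 36.7% in the neuronal classes, so the level that free RNA alone would give stands beside the glial values.

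Glutamate, the main excitatory transmitter of the forebrain, acts on ion channels and on metabotropic receptors, which are coupled to G proteins and act more slowly. Group I receptors couple to Gq, activate phospholipase C and sit mostly next to the postsynaptic density, where Homer proteins hold them. Group II and group III receptors couple to Gi/o and lower adenylyl cyclase activity. Group III receptors, and Grm2 in many pathways, lie on presynaptic terminals, where they reduce transmitter release. Grm3 is also known as a receptor of glial cells, and Grm5 is known for its high level in the striatum.

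The genes differ greatly in length, and nuclear RNA is rich in introns, so levels of different genes are compared only per kilobase of gene, and shares of summed UMIs only between classes. Grm7 lies on chromosome 6 from 110645581 to 111567230 (GRCm38, plus strand) and spans 922 kb. Grm8 lies on the same chromosome from 27275119 to 28135178 (minus strand, 860.1 kb). Grm5 lies on chromosome 7 from 87584168 to 88134907 (plus strand, 551 kb) and Grm3 on chromosome 5 from 9485541 to 9725170 (minus strand, 239.6 kb). Grm4 lies on chromosome 17 from 27422387 to 27521403 (minus strand, 99.0 kb). Grm2, on chromosome 9 from 106643095 to 106656082 (minus strand), spans 12.99 kb, of which 37.7% is exonic, against 0.639% to 6.04% for the other 5. Grm2 and Grm7 overlap antisense genes, Gm28111 with 17 UMIs beside 312 for Grm2, and Gm20387 with 340 UMIs beside 114422 for Grm7. No source gives the strand setting of the counting, so those reads cannot be told apart from their partners.

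The promoters of Grm2 and Grm3 are shown because both encode group II receptors and yet oligodendrocytes and astrocytes carried transcripts of Grm3 and next to none of Grm2, while middle-layer neurons carried both. RefSeq entries on GRCm38.p6 matched 4 of the 6 genes. Each sequence runs 5′ to 3′ on the gene's strand from 250 bases before to 50 bases after the start annotated in RefSeq, with CG dinucleotides in capitals. For Grm3 that start differs from the GENCODE one given above, and the whole window lies upstream of position 9725170.
Grm2 (chr9:106656060-106656359, minus strand): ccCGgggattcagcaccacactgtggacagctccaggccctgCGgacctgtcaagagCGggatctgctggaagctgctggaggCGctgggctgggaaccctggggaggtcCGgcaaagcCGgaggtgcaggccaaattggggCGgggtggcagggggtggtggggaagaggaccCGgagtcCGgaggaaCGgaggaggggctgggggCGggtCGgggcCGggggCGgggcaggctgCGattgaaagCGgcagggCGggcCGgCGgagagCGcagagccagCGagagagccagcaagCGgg
Grm3 (chr5:9725303-9725602, minus strand): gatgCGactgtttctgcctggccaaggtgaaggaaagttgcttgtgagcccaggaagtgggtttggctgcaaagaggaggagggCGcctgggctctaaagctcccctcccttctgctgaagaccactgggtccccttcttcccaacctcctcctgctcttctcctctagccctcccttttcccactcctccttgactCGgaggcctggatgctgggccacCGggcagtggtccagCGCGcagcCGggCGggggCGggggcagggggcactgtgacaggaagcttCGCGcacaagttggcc
The Grm2 window held 22 CG dinucleotides and 72% G and C, and 23.1% of the 32851 promoters of this length held at least as many. The Grm3 window held 11 and 63.7%, with 41.4% of promoters at or above that number, and the median promoter held 7. Of the others, the Grm7 starts held 10 and 15, and the 3 Grm8 starts held 2, 10 and 33. The counts describe the letters of these windows and were not set against any measure of binding or methylation.

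Levels are in CPM, the UMIs of a gene per 1000000 UMIs summed over all nuclei of a class in a library. Over all nuclei, Grm5 held 1921 CPM in sham, 1674 at day 1, 1931 at day 3 and 1674 at day 7, and Grm7 held 1755, 1675, 1909 and 1747. Grm3 held 471, 313, 424 and 386 CPM and was lowest at day 1. Grm8 held 428, 398, 488 and 396 CPM. Grm4 stayed between 23.5 and 30.6 CPM, and Grm2 between 4.46 and 5.74 CPM. These totals mix classes in different shares, so the classes are taken in turn below. Grm6, the family member of retinal bipolar cells and not one of the 6, had 0 UMIs in all 7765 nuclei, where the limit that 0 counts allow is 3 UMIs in each library.

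**Figure D1:**
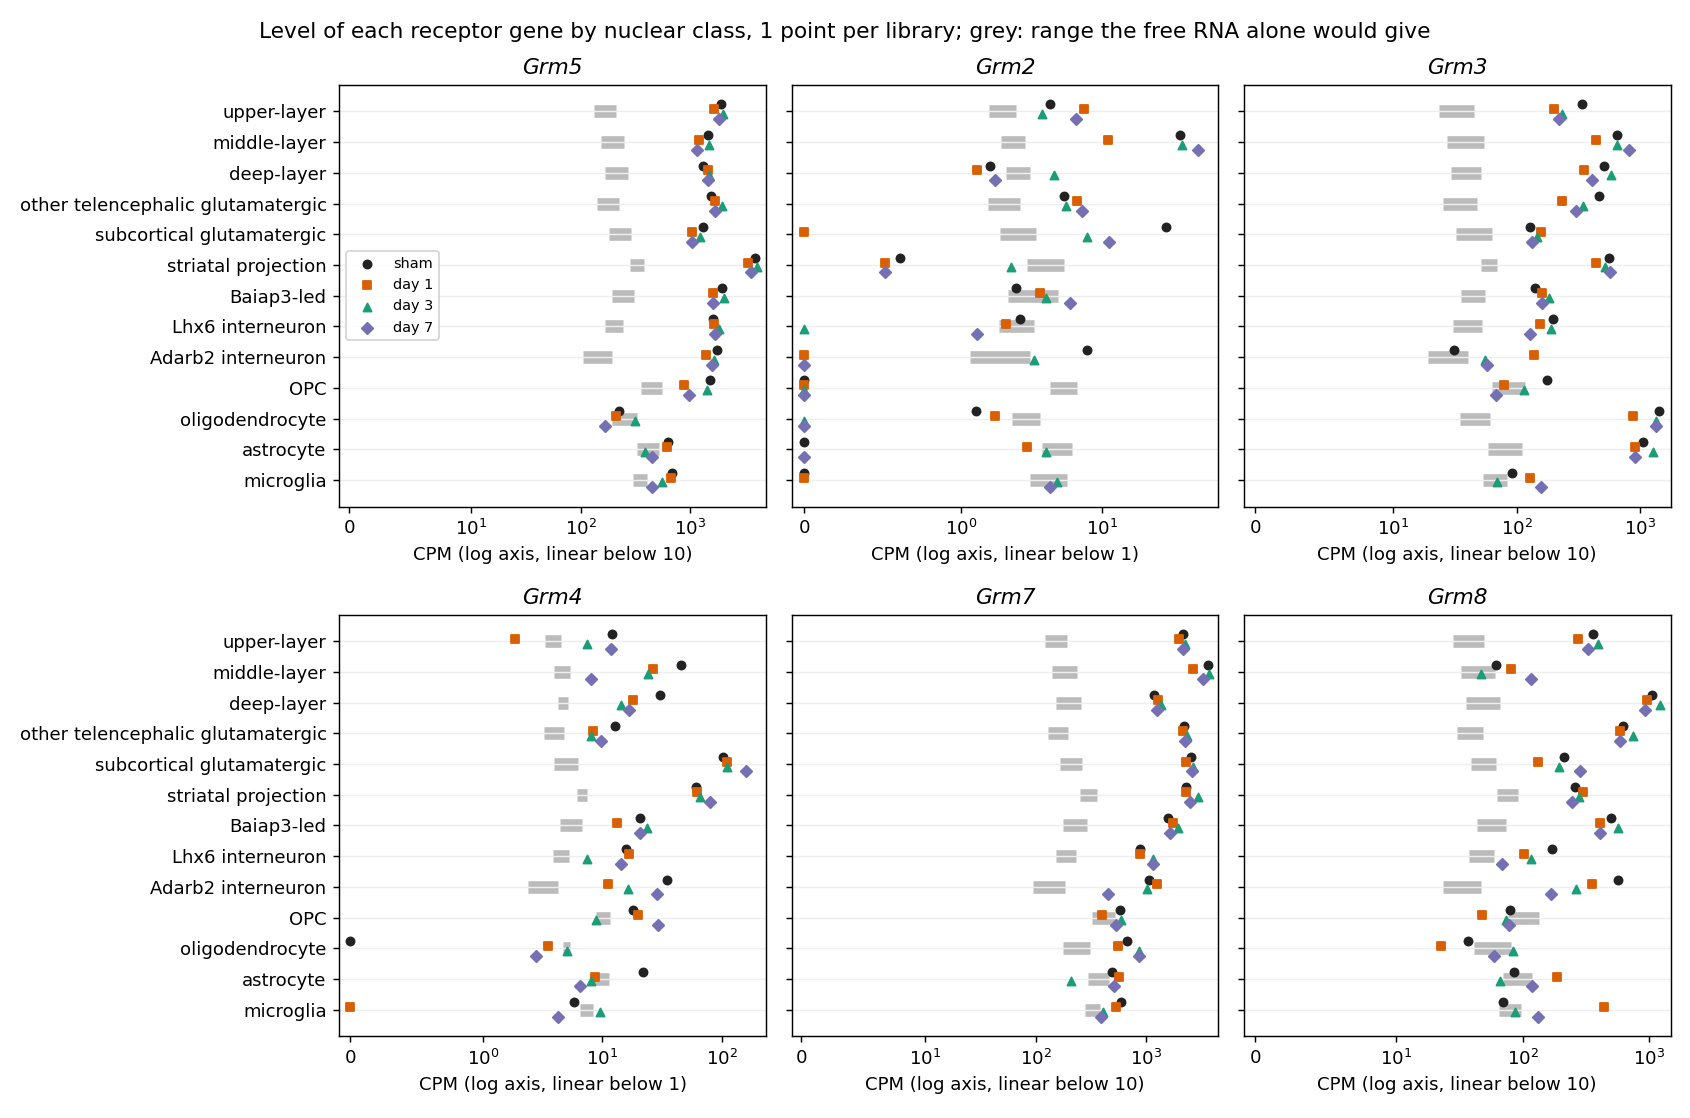
Level of each receptor gene in CPM (log axis, linear near 0) in 13 classes, with 1 point for each of the 4 libraries and a grey bar for the range that free RNA alone would give. Grm5 was highest in striatal projection neurons (3373 to 4045 CPM), Grm3 in oligodendrocytes and astrocytes, Grm7 in middle-layer neurons (2634 to 3688 CPM) and Grm8 in deep-layer neurons.

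Grm5 was carried by every neuronal class, with its top level in striatal projection neurons, the inhibitory output cells of the striatum. There it held 3869 CPM in sham, 3373 at day 1, 4045 at day 3 and 3551 at day 7. All 4 values lay above those of every other class. The ratio to upper-layer neurons was 1.93 to 2.06 over the libraries, and to deep-layer neurons 2.35 to 2.99. At a common depth of 1000 UMIs per nucleus, 94.9% to 98.6% of striatal nuclei had a Grm5 UMI (99.2% to 100% without thinning), against 24.3% to 29.1% of microglia.

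The next classes, from dentate granule neurons (median 1948 CPM) to middle-layer neurons (median 1321 CPM), overlapped with their neighbours in range over the libraries. The striatal nuclei could be split by summed markers into 457 with more direct-pathway and 469 with more indirect-pathway UMIs, while 49 were tied and 101 lay within 1 UMI of the cut. Grm5 held 3821, 3332, 4078 and 3727 CPM in the former and 3927, 3513.5, 4043 and 3392 CPM in the latter for sham, day 1, day 3 and day 7. Neither part was higher in all libraries.

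Among glia, Grm5 was found in OPC, the progenitors of oligodendrocytes, at 1499 CPM in sham, 874 at day 1, 1413 at day 3 and 964.5 at day 7. Free RNA alone would give 354 to 547 CPM there, and the measured level was 1.92 to 2.79 times that. Microglia held 442 to 683 CPM, 1.25 to 2.19 times the free RNA level, and the OPC level was 1.33 to 2.55 times that of microglia, with intervals above 1 in all 4 libraries. After thinning, 56.7% to 69.8% of OPC had a Grm5 UMI, against 24.3% to 29.1% of microglia. In oligodendrocytes the level was 168 to 309.8 CPM, 0.816 to 1.08 times that of free RNA, and the OPC level was 4.20 to 6.68 times higher. Astrocytes, at 381 to 628 CPM, stood at 0.791 to 1.86 times the free RNA level and did not exceed microglia in any library beyond the counting interval. Oligodendrocytes were below microglia in all 4 libraries.

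Grm3, the group II receptor known from glia, was highest in oligodendrocytes, the myelin-forming cells. It held 1410.5 CPM in sham, 879 at day 1, 1324 at day 3 and 1345 at day 7 in them, and free RNA alone would give 34.7 to 60.6 CPM. Astrocytes held 1054, 907, 1264 and 912 CPM, against 58.4 to 111 CPM from free RNA. The ratio of oligodendrocytes to astrocytes was 0.970 to 1.48, with an interval above 1 in 2 of 4 libraries, so the order of these classes was not settled. OPC held only 68.2 to 176 CPM, 0.738 to 1.51 times the level of free RNA, and oligodendrocytes exceeded them 8.03- to 19.7-fold. Per kilobase, the median of Grm3 in oligodendrocytes was 5.57 CPM, against 0.824 for Grm7 and 0.392 for Grm5 in the same nuclei.

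The shares of nuclei gave the same order. After thinning, a Grm3 UMI was found in 50% to 71.4% of oligodendrocytes (81.9% to 87.5% unthinned) and in 48.1% to 59.7% of astrocytes. The share was 4.3% to 8.6% in OPC and 3.4% to 7.2% in microglia, which is the background.

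**Figure D2:**
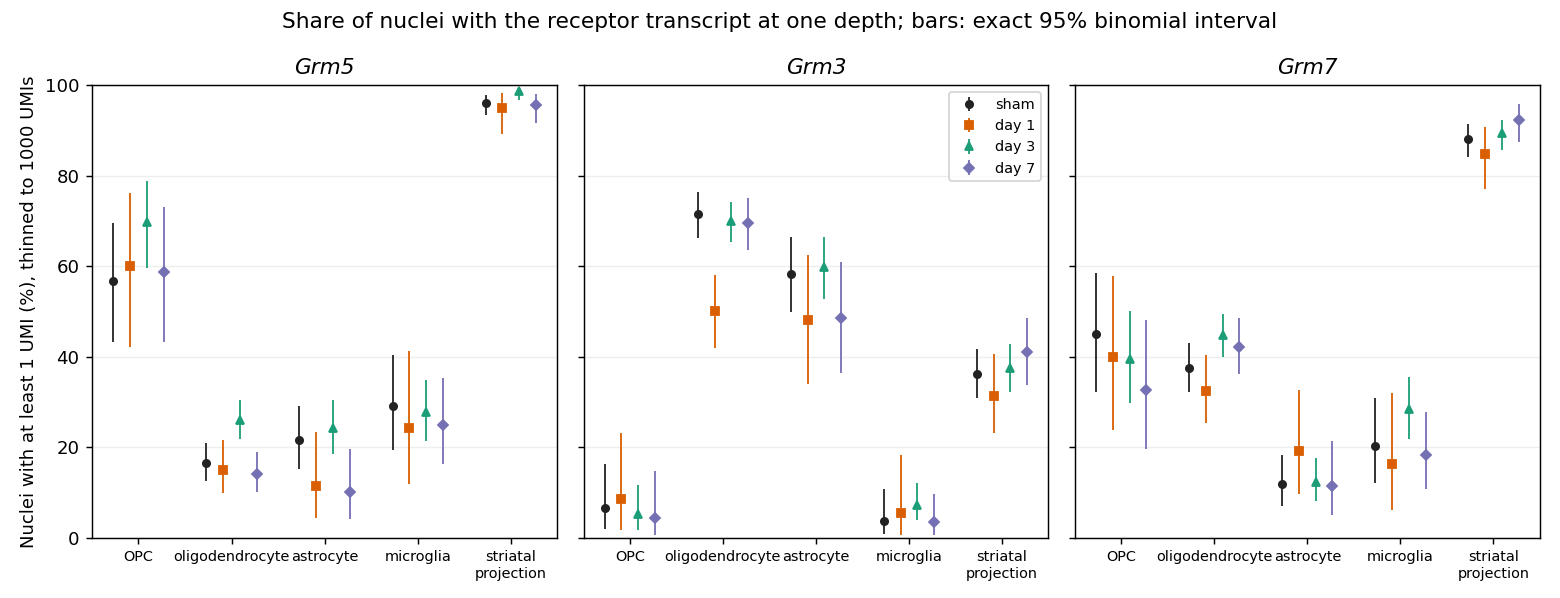
Percent of nuclei with at least 1 UMI of Grm5, Grm3 and Grm7 after every nucleus was thinned to 1000 UMIs, in 4 glial classes and striatal projection neurons, with 1 point per library and exact 95% binomial intervals. Grm3 marked oligodendrocytes and astrocytes but not OPC, whereas Grm5 marked OPC (56.7% to 69.8%) and striatal projection neurons.

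Neuronal Grm3 was highest in middle-layer neurons, at 641 CPM in sham, 440.4 at day 1, 652 at day 3 and 808 at day 7. Next came striatal projection neurons with 436 to 568 CPM and deep-layer neurons with 347 to 575 CPM, in overlapping ranges. Within classes the clusters differed. Among deep-layer neurons, the Hs3st4-led cluster was 2.97 to 4.21 times above the Fam19a1-led cluster. For Grm5 the order of the deep-layer pair was turned, with the Fam19a1-led cluster 1.53 to 2.08 times above. Among oligodendrocytes, the Prr5l-led cluster held 933 to 1556 CPM of Grm3 and the Cnksr3-led cluster 406 to 882 CPM, a ratio of 1.75 to 3.83.

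Grm2, the other group II receptor, was sparse, with 312 UMIs in all nuclei. Its median was highest in middle-layer neurons, at 35.6 CPM (22 UMIs) in sham, 11.01 (5 UMIs) at day 1, 36.8 (23 UMIs) at day 3 and 48.0 (12 UMIs) at day 7. Free RNA alone would give 1.91 to 2.84 CPM there. Dentate granule neurons held 36.4 CPM (13 UMIs) at day 1, 15.7 (6 UMIs) at day 3 and 30.2 (16 UMIs) at day 7, with 0 UMIs in the 5 nuclei of sham, so middle-layer neurons were not the highest at day 1. Their ratio to upper-layer neurons was 7.31 to 9.88 in the other 3 libraries and 1.47 (0.38 to 5.10) at day 1. OPC had 0 UMIs of Grm2 in 237 nuclei, and oligodendrocytes had 1 UMI in sham, 1 at day 1 and 0 on the later days. The free RNA itself held 9.35 to 14.7 CPM of Grm2, and of the compared classes only middle-layer neurons (36.2 CPM) had a median above that range, while subcortical glutamatergic neurons (9.55 CPM) lay within it. Per kilobase, the median of Grm2 in middle-layer neurons was 2.79 CPM and that of Grm3 was 2.7 CPM.

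Grm7, the group III receptor of presynaptic active zones, was present in every neuronal class and highest in middle-layer neurons. It held 3552 CPM in sham, 2634 at day 1, 3688 at day 3 and 3258 at day 7 there, the highest of the 12 compared classes in each library. The day 1 value was below that of striatal projection neurons at day 3 (2895 CPM), so the ranges over the libraries overlapped. The ratio to upper-layer neurons was 1.34 to 1.65 and that to deep-layer neurons 2.07 to 3.05. Of the compared classes, subcortical glutamatergic neurons came next by median with 2257 to 2620.2 CPM. Striatal projection neurons followed with 2257 to 2895 CPM, in an overlapping range. Interneurons were lower, with medians of 1029 CPM in the Adarb2 class and 1008 CPM in the Lhx6 class.

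The Lhx6 class hid a split. In its Sst-led cluster, which carries the somatostatin and neuropeptide Y genes, Grm7 held 1530.3 CPM in sham, 2986 at day 1, 2055 at day 3 and 2204 at day 7. In its Eya4-led cluster the values were 574, 234, 414 and 626 CPM. The clusters did not overlap, and the ratio was 2.67 to 12.8. Grm8 was also higher in the Sst-led cluster, 2.7 times in sham, 2.7 at day 3 and 1.91 at day 7. At day 1 the ratio was 29.2, from 44 against 5 UMIs, with 31 of the 44 in 1 nucleus. Without the highest nucleus of each cluster and library, the ratio was 2.92 (1.90 to 4.51) in sham, 18.3 (5.03 to 100.2) at day 1 against 3 UMIs, 1.53 (0.83 to 2.82) at day 3 and 2.24 (0.86 to 5.88) at day 7. Grm5 (0.880 to 1.18) and Grm3 (0.770 to 1.41) did not differ in one direction. The day 1 values rest on 9 Sst-led and 22 Eya4-led nuclei.

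In glia, Grm7 was above the background in oligodendrocytes, at 668 CPM in sham, 557 at day 1, 852 at day 3 and 854 at day 7. That is 2.73 to 4.55 times the 178 to 312 CPM that free RNA would give. After thinning, 32.5% to 44.7% of oligodendrocytes had a Grm7 UMI, against 16.2% to 28.3% of microglia. In summed CPM, however, oligodendrocytes exceeded microglia by 1.04 to 2.21 times, beyond counting error in 2 of 4 libraries. Grm7 in OPC stood at 1.15 to 1.21 times the level of free RNA and in astrocytes at 0.456 to 1.87 times.

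**Figure D3:**
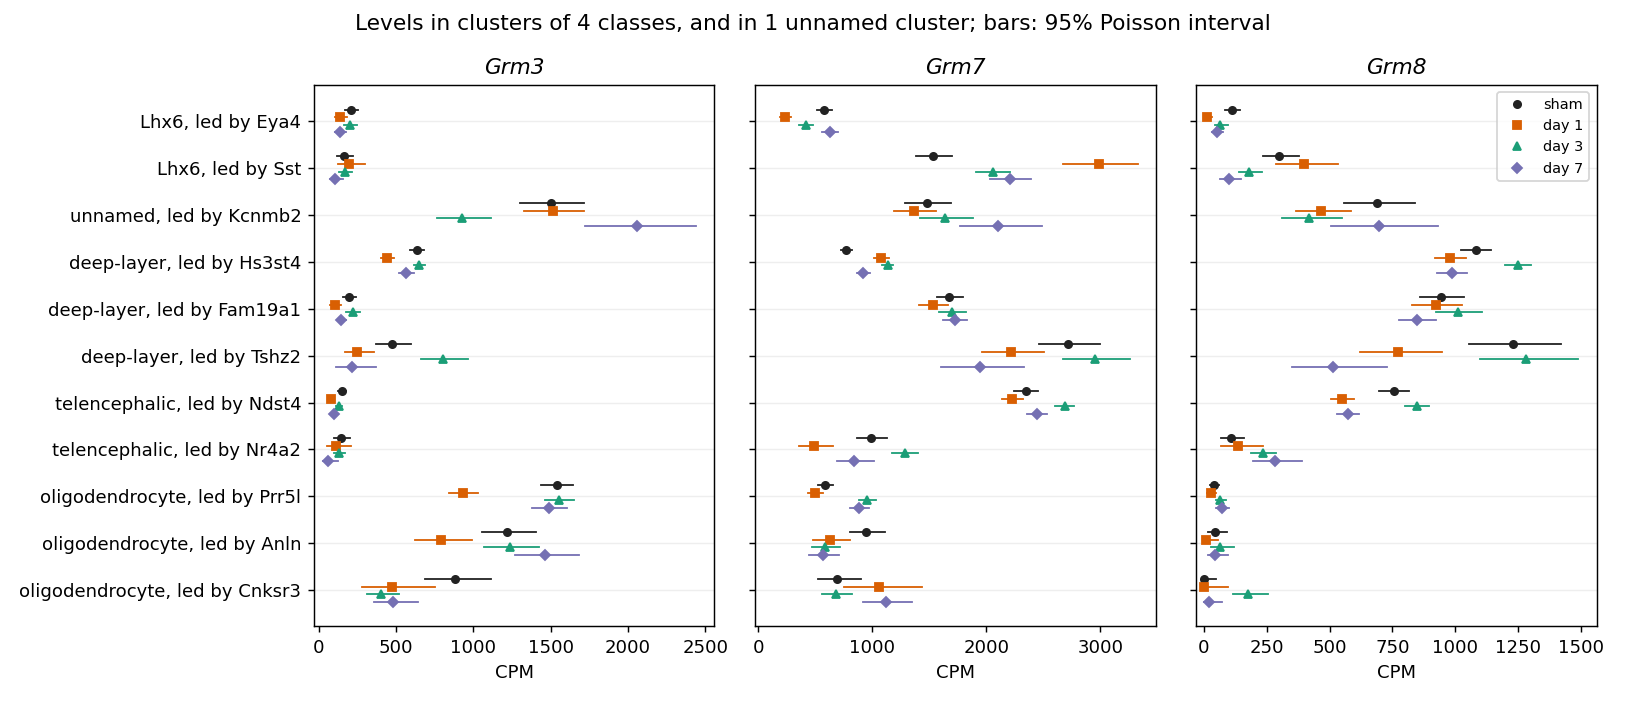
CPM of Grm3, Grm7 and Grm8 in clusters of 4 classes and in 1 unnamed cluster, with 1 point per library and 95% Poisson intervals. Within the Lhx6 class Grm7 was 2.67 to 12.8 times higher in the Sst-led cluster, and Grm3 was 2.97 to 4.21 times higher in the Hs3st4-led than in the Fam19a1-led deep-layer cluster.

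Grm8, a group III receptor with high affinity for glutamate, was highest in deep-layer neurons. It held 1056 CPM in sham, 950.1 at day 1, 1203 at day 3 and 919.9 at day 7. Other telencephalic glutamatergic neurons (588 to 742 CPM) and Baiap3-led neurons (405 to 566 CPM) followed by median, in ranges separate from each other. Adarb2 interneurons (166 to 563 CPM) overlapped the latter and were above them in sham. Middle-layer neurons, which lie next to deep-layer neurons in the cortex, held only 46.5 to 116 CPM, a 7.93- to 25.9-fold difference. Free RNA alone would give middle-layer neurons 32.7 to 60.4 CPM. As pooled classes, the cortical layers thus had opposite orders for Grm7 and Grm8. Upper-layer neurons lay between, and deep-layer neurons were 2.79 to 3.50 times above them for Grm8. For Grm7, however, the deep-layer clusters differed. The Tshz2-led cluster (50 nuclei) was 2.06 to 3.52 times above the Hs3st4-led cluster, and the Fam19a1-led cluster 1.42 to 2.17 times. The Tshz2-led cluster had medians of 2469 CPM for Grm7, above the upper-layer median of 2147 CPM, and 999 CPM for Grm8. In striatal nuclei with more direct-pathway UMIs Grm8 held 287, 291, 344 and 279 CPM, and in those with more indirect-pathway UMIs 236, 268, 205 and 214 CPM. The former were higher in all 4 libraries, with overlapping intervals in sham and at day 1. In OPC (47.7 to 78.9 CPM) and oligodendrocytes (22.7 to 83.8 CPM) Grm8 stood at 0.547 to 1.28 times the level of free RNA. Microglia held 69.5, 441, 86.2 and 133 CPM in sham and at days 1, 3 and 7. The high value at day 1 lay mostly in 1 nucleus, which held 66.3% of the 89 Grm8 UMIs of that class.

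Grm4, a group III receptor known from cerebellar granule cells and the basal ganglia, had low levels with a clear order. Subcortical glutamatergic neurons held 103 CPM (40 UMIs) in sham, 111 (55 UMIs) at day 1, 110.1 (70 UMIs) at day 3 and 159 (85 UMIs) at day 7. In striatal projection neurons Grm4 held 60.3, 61.8, 66.2 and 79.8 CPM, from 120 to 206 UMIs. The classes did not overlap with each other or with those below, and their ratio was 1.66 to 1.99. All other classes of the comparison had medians of 25.2 CPM or less, and oligodendrocytes had 0 to 5.05 CPM.

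The make-up of the family therefore differed by class. Of the summed UMIs of the 6 genes, Grm3 took 51.4% to 60.3% in oligodendrocytes and 39.9% to 65.4% in astrocytes, but 4.09% to 7.48% in OPC. Grm5 took 57.9% to 64.1% in OPC, 55.01% to 59.1% in Lhx6 interneurons and 51.5% to 55.1% in striatal projection neurons. Grm7 took 59.9% to 62.1% in middle-layer neurons and 58.8% to 61.3% in subcortical glutamatergic neurons. Grm8 took 22.9% to 26.1% in deep-layer neurons and 12.2% to 13.9% in other telencephalic neurons. These shares favour long genes and do not rank the genes within a class. Per kilobase, the medians in middle-layer neurons were 3.69 CPM for Grm7, 2.79 for Grm2, 2.7 for Grm3 and 2.40 for Grm5. In deep-layer neurons they were 2.61 CPM for Grm5, 1.90 for Grm3, 1.36 for Grm7 and 1.17 for Grm8. The summed level of the 6 genes was highest in striatal projection neurons (6426 to 7802 CPM) and lowest among the neuronal classes of the comparison in the interneurons, with overlapping ranges of 2803 to 3261 CPM in the Lhx6 class and 2278 to 3453 CPM in the Adarb2 class.

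The comparison with sham asked whether the level of each receptor within a class differed after the occlusion. A pair of gene and class was taken where the class held at least 50 UMIs of the gene over the 4 libraries, which kept 56 of 72 pairs. Grm3, Grm5, Grm7 and Grm8 were kept in all 12 classes, Grm4 in 6 and Grm2 in 2. At day 1, 17 of 56 pairs (30.4%) were past 1.5-fold, against 19.2% of the 94968 pairs of all genes, and 15 of the 17 were lower than sham. At day 3, 9 pairs (16.1%) were past the fold against 14.4% of all pairs, 7 of them lower. At day 7, 14 pairs (25%) were past it against 19.2% of all pairs, 10 of them lower. Of the pairs of all genes past the fold, 9223 of 18250 were lower at day 1, 7721 of 13719 at day 3 and 11227 of 18274 at day 7, so all genes also leaned to lower at day 7. For genes of 200 kb or more, 1128 of 1891 were lower at day 1, 705 of 1329 at day 3 and 848 of 1673 at day 7, so these leaned to lower at day 1. The counting interval left out 1 in 12, 5 and 12 of the receptor pairs past the fold.

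With at least 200 UMIs, 8, 3 and 8 of 45 pairs were past the fold at day 1, day 3 and day 7, or 17.8%, 6.67% and 17.8%. The shares of all genes were 7.96%, 4.80% and 7.52%. The median log2 ratio of the 56 pairs was -0.24 at day 1, 0.06 at day 3 and -0.06 at day 7, beside 0.00, -0.04 and -0.06 over all genes and -0.05, 0.04 and 0.03 over genes of 200 kb or more. The pairs share nuclei and the sham library, so they are not independent of each other.

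**Figure D4:**
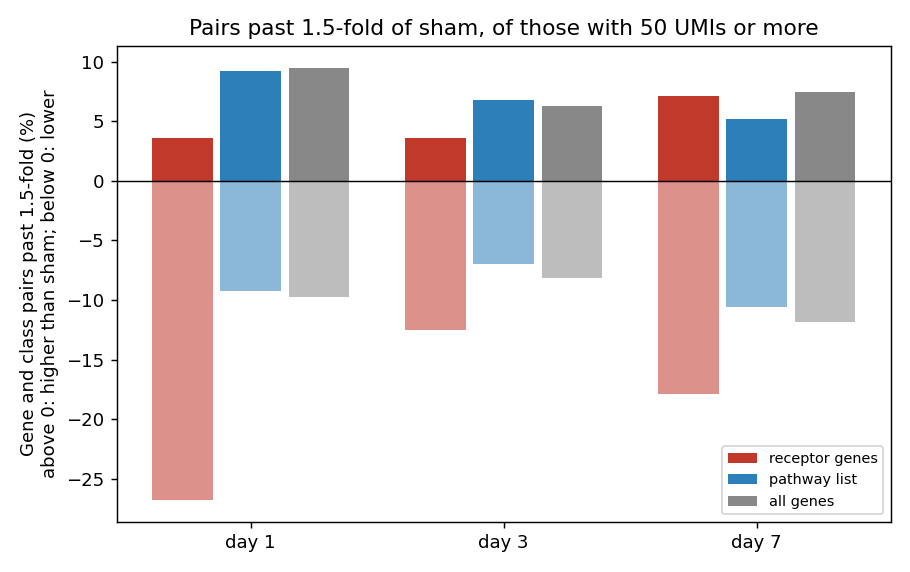
Percent of gene and class pairs past 1.5-fold of sham at each time point, higher above 0 and lower below 0, for the receptor genes (56 pairs), the pathway list (575 pairs) and all genes. At day 1, 15 of the 17 receptor pairs past the fold were lower than sham.

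At day 1, Grm3 was below sham in 9 of 12 classes, in 8 of them beyond counting error. Grm5 and Grm8 were also below sham in 9 classes each, in 7 and 6 beyond counting error. In other telencephalic glutamatergic neurons Grm3 fell from 466 CPM in sham to 231 at day 1, a ratio of 0.50 (95% counting interval 0.45 to 0.55). It then held 345 CPM at day 3 (ratio 0.74) and 301 at day 7 (ratio 0.65). In upper-layer neurons it fell from 339.6 to 201 CPM, a ratio of 0.59 (0.50 to 0.70), and held 232 and 222 CPM on the later days (ratios 0.68 and 0.65). All 3 post-injury libraries were below sham in these classes. Deep-layer (504.5 to 347 CPM) and middle-layer neurons (641 to 440.4 CPM) both had a ratio of 0.69 at day 1, but deep-layer neurons stood at 1.14 (1.05 to 1.24) at day 3 and 0.81 (0.73 to 0.89) at day 7, and middle-layer neurons at 1.02 and 1.26. Striatal projection neurons had a ratio nearer to 1, of 0.78 (0.72 to 0.85) at day 1 and 1.02 at day 7. At day 3 they were also below sham beyond counting error.

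In oligodendrocytes Grm3 fell from 1410.5 to 879 CPM at day 1, a ratio of 0.62 (0.56 to 0.69), and stood at 0.94 and 0.95 of sham on day 3 and day 7. Only day 1 was apart from the rest. The thinned share of oligodendrocytes with a Grm3 UMI was 71.4% (66.2% to 76.3%) in sham, 50% (42.0% to 58.0%) at day 1, 69.9% at day 3 and 69.5% at day 7. The day 1 values were below sham in each of the 3 oligodendrocyte clusters, with 933 against 1540.1 CPM, 792 against 1219 CPM and 475 against 882 CPM. In the last of these, the Cnksr3-led cluster, day 1 did not stand apart, since day 3 (406 CPM) and day 7 (483 CPM) were as far below sham. Of the day 1 UMIs, 3.78% came from the highest nucleus. In astrocytes the day 1 ratio was 0.86 (0.75 to 0.99). In the alternatives, the log2 ratio at day 1 ranged from -0.78 to -0.61 in oligodendrocytes, from -0.88 to -0.56 in upper-layer neurons and from -1.09 to -0.88 in other telencephalic neurons. The free RNA profile of day 1 also held less Grm3, 141 CPM against 225 in sham. With the estimated free RNA subtracted, the ratios of these classes were 0.62, 0.58 and 0.47. The part of free RNA in the day 1 values was not tested.

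Of the pairs where Grm3 was higher, that in Adarb2 interneurons at day 1 (31.0 to 137 CPM, ratio 4.42, interval 2.08 to 10.81) rests on 8 UMIs in sham and on 1 nucleus with 51% of the UMIs at day 1. Without the highest nucleus of each library the values were 11.6 and 67.3 CPM. OPC had ratios of 0.45, 0.65 and 0.39, from 49 UMIs in sham and 14 to 39 later, at levels near that of free RNA.

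**Figure D5:**
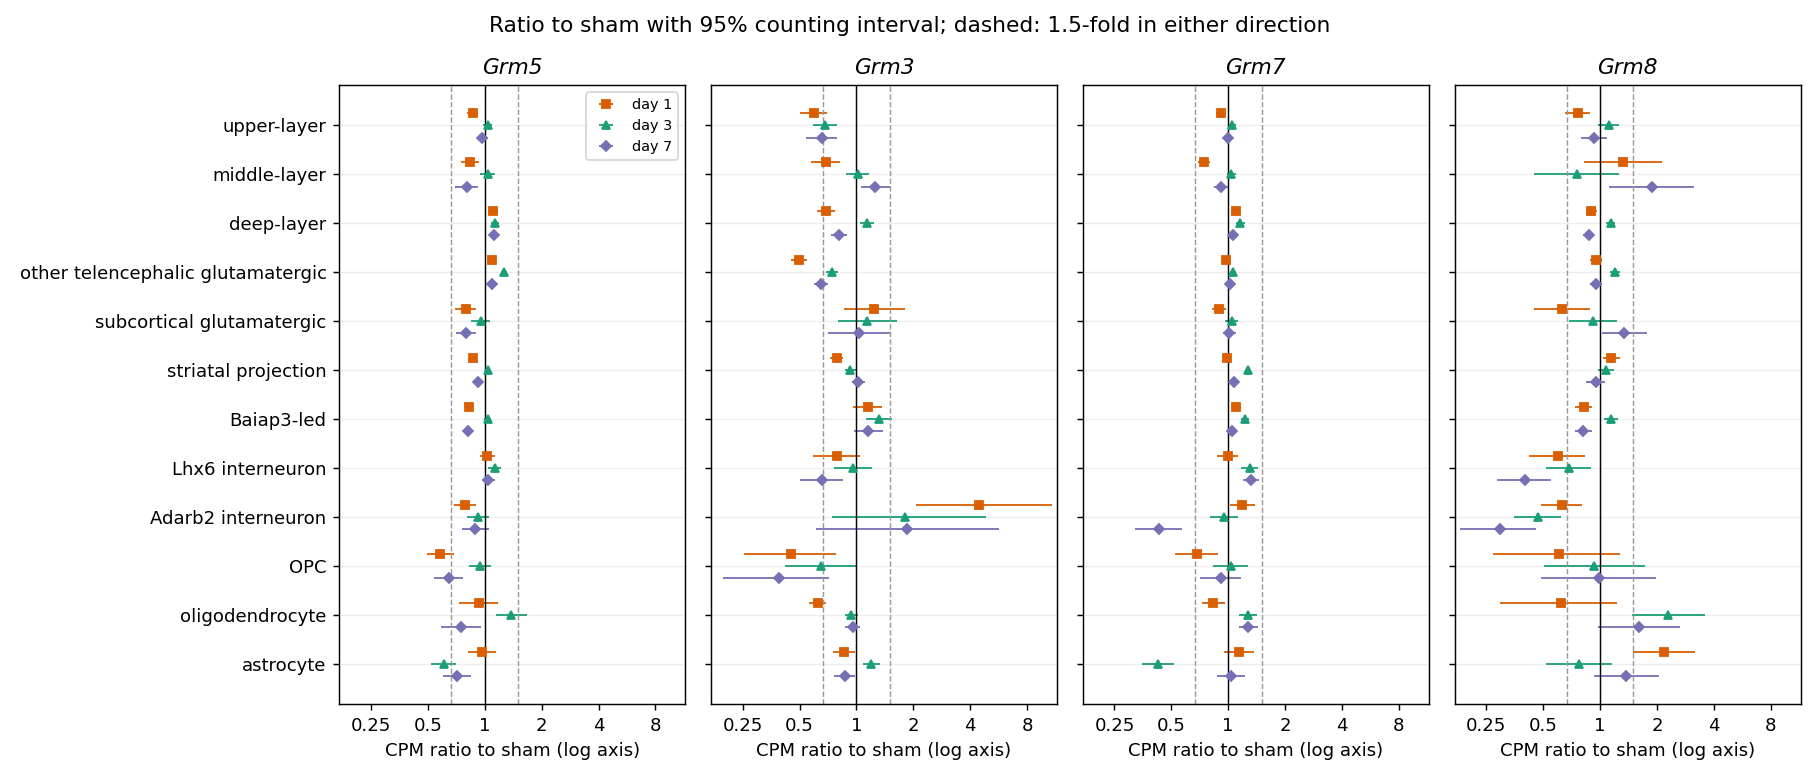
Ratio of CPM to sham (log axis) for Grm5, Grm3, Grm7 and Grm8 in 12 classes, with 1 point for each post-injury library and 95% counting intervals, and dashed lines at 1.5-fold in either direction. At day 1 Grm3, Grm5 and Grm8 each lay below 1 in 9 of 12 classes and Grm7 in 8, and past 1.5-fold lower in 4 classes for Grm3, 1 for Grm5, 5 for Grm8 and 0 for Grm7.

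Grm5 stayed within 1.5-fold of sham in every neuronal class on all days. It was slightly above sham in all 3 post-injury libraries in deep-layer neurons (1295 CPM in sham, then 1434, 1467 and 1442, ratios 1.11 to 1.13) and in other telencephalic neurons (1546, then 1687, 1947 and 1689 CPM, ratios 1.09 to 1.26). In striatal projection neurons the ratios were 0.87, 1.05 and 0.92. The OPC level was lower at day 1 (ratio 0.58, interval 0.49 to 0.69) and day 7 (0.64, 0.54 to 0.76), and at day 3 the ratio was 0.94. After thinning, however, the share of OPC with a Grm5 UMI was 56.7% in sham, 60.0% at day 1 and 58.7% at day 7, so the lower sums did not come with a lower share of nuclei. The astrocyte values (628, 606, 381 and 448 CPM), near the level of free RNA, gave ratios of 0.97, 0.61 and 0.71.

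Grm7 likewise stayed within 1.5-fold in all neuronal classes but Adarb2 interneurons. Deep-layer neurons were above sham in all 3 libraries, with 1166 CPM in sham and then 1275, 1347 and 1238 (ratios 1.06 to 1.16). In middle-layer neurons the ratio was 0.74 (0.69 to 0.80) at day 1, 1.04 at day 3 and 0.92 at day 7. In oligodendrocytes it was 0.83 (0.72 to 0.96) at day 1 and 1.28 at both later times (1.14 to 1.42 and 1.14 to 1.44). Adarb2 interneurons held 1055, 1250 and 1002 CPM in sham, day 1 and day 3 and 454 CPM at day 7, from 63 UMIs in 20 nuclei, with 38% of them in 1 nucleus. With nuclei assigned one by one from markers that direction was turned (ratio 1.09). The astrocyte value of day 3, 209 CPM against 492 in sham, was below the level of free RNA, and on day 7 59.3% of the astrocyte UMIs came from 1 nucleus.

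Grm8 was below sham in all 3 post-injury libraries in both interneuron classes. In Adarb2 interneurons it held 563 CPM in sham, 353 at day 1, 264 at day 3 and 166 at day 7 (ratios 0.63, 0.47 and 0.29), from 145, 126, 80 and 23 UMIs. Without the highest nucleus of each library the values were 450.4, 249.5, 208 and 101 CPM. In Lhx6 interneurons it held 172, 103, 117 and 68.4 CPM, but 1 nucleus held 63% of the day 1 UMIs. Without the highest nucleus of each library the values were 142.8, 37.7, 69.7 and 46.5 CPM. In the classes with the highest levels Grm8 stayed within 1.5-fold, with ratios of 0.90, 1.14 and 0.87 in deep-layer neurons and of 0.95, 1.20 and 0.95 in other telencephalic neurons. In 3 classes with low levels Grm8 was above sham past the fold on 1 day with an interval above 1. These were astrocytes at day 1 (2.17, 1.49 to 3.17), oligodendrocytes at day 3 (2.28, 1.48 to 3.61) and middle-layer neurons at day 7 (1.89, 1.12 to 3.14), from 64, 83 and 29 UMIs, of which the highest nucleus held 35.9%, 31.3% and 31.0%. The levels were 0.547 to 2.67 times those of free RNA in these classes.

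Grm4 was below sham in deep-layer neurons in all 3 libraries, with 30.3 CPM (57 UMIs) in sham and 18.1 (28), 14.4 (35) and 16.8 (29) later, ratios of 0.60, 0.48 and 0.55 whose intervals left out 1. In middle-layer neurons it was also below sham in all 3, with 45.3 CPM (28 UMIs) in sham and 26.4 (12), 24.03 (15) and 8.004 (2) later, and the interval of the ratio left out 1 at day 7 (0.020 to 0.70). Other telencephalic glutamatergic neurons had ratios of 0.63 to 0.77, with intervals that held 1. In striatal projection neurons the ratios were 1.03, 1.10 and 1.32, and in subcortical neurons 1.08, 1.07 and 1.55 (1.05 to 2.31 at day 7). Grm2 fell in middle-layer neurons from 22 to 5 UMIs at day 1 (ratio 0.31, 0.09 to 0.84) and had ratios of 1.03 and 1.35 later.

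The other genes of the pathway were followed through a list of 65 genes of the transduction arms, scaffolds, ligand supply and related receptors. Of their 575 pairs with enough UMIs, 106 were past 1.5-fold at day 1 (53 higher, 53 lower), 79 at day 3 (39 and 40) and 91 at day 7 (30 and 61). These are 18.4%, 13.7% and 15.8%, beside 19.2%, 14.4% and 19.2% of the pairs of all genes. Of the Gq arm, which serves group I receptors, 20, 14 and 17 of 143 pairs were past the fold. Of the Gi/o arm, which serves groups II and III, 27, 22 and 22 of 132 pairs were. Scaffolds and regulators gave 42, 34 and 43 of 219 pairs. The Gq arm lay below the share of all genes at each time, while the Gi/o arm lay above it at day 1 and day 3 and below it at day 7.

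Some pathway genes were among the 3 largest changes of a class on several days. In upper-layer neurons Plcb4, a phospholipase C of the Gq arm, held 335 CPM in sham and 169, 264 and 167 later (ratios 0.51, 0.79 and 0.50). Grm5 in these neurons had ratios of 0.86, 1.04 and 0.97. Pick1, which binds the tail of Grm7, was lower in middle-layer neurons at all times (ratios 0.47, 0.48 and 0.34), from 29 UMIs in sham and 4 to 14 later.

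Likeness of pattern was measured by Pearson's correlation of log2(CPM + 10) over 52 points, 13 classes in 4 libraries, among 10738 other genes. The points share libraries and depth, so the values describe these sums only. Closest to Grm5 were Fgf14 (r = 0.94), Unc79 (0.93) and Myt1l (0.92). Closest to Grm7 were Cntn3 (0.89), Mical3 (0.88) and Cdh8 (0.87), and closest to Grm8 were Gm26871 (0.86), Gabra5 (0.84) and Prkce (0.83). For Grm3 they were Arap2 (0.75), Klf9 (0.75) and Myo18a (0.74), and for Grm4 Rap1gap (0.80), Lrrn2 (0.79) and Fam110b (0.75). Grm2 had too few UMIs. Among the receptors themselves, Grm5 and Grm7 had an r of 0.62, Grm7 and Grm8 of 0.41, and Grm5 and Grm3 of -0.34.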

How the data were processed

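RNA of single nuclei was sequenced from droplets (10x Genomics) in 4 libraries, 1 per group. The deposited values are raw UMI counts per gene and barcode, made by the authors with STARsolo (STAR 2.7.3a, per the labels) on GRCm38 with GENCODE vM8, exonic and intronic reads together, for all barcodes and without normalisation. Groups came from the labels.

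Nuclei were called per library by an emptyDrops-like test against barcodes of at most 1000 UMIs (false discovery rate under 0.001), and the barcodes scored highest by Scrublet (scanpy 1.11.5) were removed as doublets at 0.8% per 1000 nuclei. Clustering used Seurat 5.3.0 with sctransform 0.4.2 in R 4.3.3, with the receptor and pathway genes left out of the features. The rule for naming clusters from markers was set after the clusters had been seen, and the names of 69.4% of nuclei were the same when nuclei were assigned one by one. The receptor genes and all lists were chosen with earlier results of these data known.

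UMIs were summed per class and library, with exact Poisson intervals for CPM, exact conditional binomial intervals for ratios and Clopper-Pearson intervals for shares, all at 95%. Past the fold means a ratio of at least 1.5 or at most its inverse, and ratios of sums under 3 UMIs were taken at a floor of 3 UMIs. The ratio step was tested on simulated counts. All 6 receptors are named. Of the pathway list, Grm6 is named and, per class and day, the 3 genes with the largest log2 ratio whose interval left out 1; of these the text takes examples named on several days. Some genes of that list and a cluster are not reported here. For likeness the 3 highest correlations were named. Positions are from GENCODE vM21 (GRCm38). The deposited tables held 0 columns of samples that were not used. Alternatives are under the closing section.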

Additional observations from a re-analysis of the deposited data

How the results depend on the processing

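With 1 library per group no library could be left out. No paired analysis was possible because every group holds 1 library and the only replicate number is 1. The number of receptor pairs past 1.5-fold at day 1 (17) was 11 with nuclei thinned to 1000 UMIs, 8 with at least 200 UMIs per pair and 5 at 2-fold. At day 3 (9) it was 4 when thinned, 3 with at least 200 UMIs, 18 with no minimum and 4 at 2-fold. At day 7 (14) it was 8 with nuclei assigned one by one from markers, 5 when thinned, 8 with at least 200 UMIs and 5 at 2-fold. With the mean of each nucleus' CPM the day 1 split of 2 higher and 15 lower became 4 and 11. Over all results compared, 68 moved without turning and 48 stayed the same when nuclei were thinned. With nuclei assigned from markers 59 moved and 104 stayed the same. Every other setting moved 20 or fewer. Directions turned for Grm7 in Adarb2 interneurons at day 7 and Grm3 in OPC at day 3 with nuclei assigned from markers (log2 ratios 0.12 and 0.093) and for Grm8 in oligodendrocytes at day 1 when thinned (0.0090). The cause was not tested. TMM scaling shifted the middle-layer class of day 1 by 0.12 and the oligodendrocyte class of day 7 by -0.11 on the log2 scale. Free RNA subtracted per class and the removal of the highest nucleus were chosen after seeing the data. Grm2 and Grm4 are limited by depth, with 312 and 1699 UMIs in all nuclei.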

Other observations

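Some values belong to clusters that no marker list could name. In an unnamed cluster of 50 nuclei led by Kcnmb2, Fign and Ubash3b, Grm3 held 1499 CPM in sham (18 nuclei), 1514 at day 1 (7 nuclei), 929 at day 3 (18 nuclei) and 2057 at day 7 (7 nuclei). This was 4.53 to 14.7 times the level of the Eya4-led cluster of Lhx6 interneurons and 0.597 to 1.62 times that of the Prr5l-led oligodendrocyte cluster. Grm5 had a median of 775 CPM there, against 1127 CPM or more in the compared neuronal classes. The closest class of this cluster was that of Lhx6 interneurons.

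In an unnamed cluster of 186 nuclei led by Chst9, Foxp2 and Tshz1, whose closest class was that of striatal projection neurons, Grm8 held 691, 890, 1103 and 935 CPM in sham, day 1, day 3 and day 7. That was 2.67 to 3.97 times the level of the striatal projection class. For Grm5 the striatal projection class was the higher one, by 1.72 to 1.83 times. Grm4 did not differ in one direction (ratio 0.715 to 1.26).

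The Drd3-led cluster of 82 nuclei, named from direct-pathway markers, lay below the larger striatal class for some receptors only. That class was 1.82 to 2.06 times higher for Grm5 and, for Grm8, 5.85 times higher in sham (2.68 to 15.98, against 6 UMIs) and 9.52 times at day 3 (3.71 to 35.0, against 4 UMIs). At day 1 and day 7 that cluster held 1 and 0 Grm8 UMIs. With its day 7 value set to a floor of 3 UMIs, the striatal class was 5.21 times higher, and the counting interval began at 4.22. For Grm7 the Drd3-led cluster held 2524, 1795, 2632 and 2404 CPM in sham, day 1, day 3 and day 7 and the striatal class 2283, 2257, 2895 and 2446 CPM, so neither was higher in all libraries.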
